A study of Mus musculus with 12 samples.

Results

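The subject is the 3 Neuro-2a libraries that carry replicate number 3, 1 per treatment, set against the 6 libraries that carry number 1 or 2, described across all genes. Together they make up 9 of the 12 RNA sequencing libraries of the series, and the 3 libraries with number 4 are left out except in the last comparison. The division was chosen from measured counts, since earlier results on these counts had shown that libraries differed by their number. The contrast between number 3 and numbers 1 and 2 is therefore given as a description, and its counts of genes past a threshold support no claim.

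Neuro-2a is a mouse neuroblastoma line, wild type per the labels, with features of sympathetic neuron precursors. The cells were transfected with a miR-155 mimic, a miR-155 inhibitor or miR-Control, without serum or antibiotics, were given complete medium after 4 h and were cultured until day 2. The groups used here are mimic, inhibitor and control libraries of number 3, then the same treatments with numbers 1 and 2, and at the end those with number 4. The labels do not say what a number stands for (a culture, a passage, a day or a library run), so p-values and SDs reflect differences among samples that could be technical in origin. MicroRNA mimics load into Argonaute proteins and lower the transcripts they pair with, and inhibitors bind the cell's own microRNA. Because every number holds 1 library of each treatment, the comparison of numbers is balanced over the treatments.

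Replicates show how far a cell line's transcriptome moves when nothing is changed on purpose. In cultured tumour cells, genes of the cell cycle, of cholesterol synthesis, of the response to low oxygen and of amino acid stress follow cell density, medium and time in culture. Measured RNA also carries the signature of fragmentation and amplification, which treat long and AT-rich transcripts differently from short and GC-rich ones.

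The 9 libraries held 60695388 to 74200532 counts each and detected 13669 to 13836 genes with 1 count or more. The tables list all 17 of the neuroblastoma markers looked for, and 14 of them were above 1 CPM on average (counts relative to library size, scaled by TMM), among them Hand2 at 697 CPM, a transcription factor of sympathetic neuroblasts. Nefl, the neurofilament light chain, had 0 counts in all 9 libraries. Their summed level was 3670 to 3860 CPM in number 3 libraries and 3750 to 3970 CPM in those of numbers 1 and 2. The mean of 13 of the 14 markers was lower in number 3, with a median log2 difference of -0.0485, and -0.0374 without control 2. Their mean log2 CPM (scaled over the 12 libraries) was 6.78, 6.78 and 6.80 in control 3, mimic 3 and inhibitor 3, all below the 6.82 to 6.92 of numbers 1 and 2. Of 4 immune markers in the table, 0 were above 1 CPM, and their sum was 0.0807 to 0.366 CPM in number 3 and 0 to 0.44 CPM in numbers 1 and 2. Epithelial markers summed to 0.68 to 1.19 CPM in number 3, against 0.811 to 1.67 CPM in numbers 1 and 2. Of the fibroblast markers Pdgfrb, Acta2 and Pdgfra were above 1 CPM, and the list summed to 19.5 to 21.5 CPM in number 3, against 14 to 21.1 CPM in numbers 1 and 2. As a mean log2 CPM fibroblast markers lay at 0.606 to 0.764 in number 3, above the -0.022 to 0.533 of numbers 1 and 2. The part of these markers in the results below was not tested. Glial markers summed to 12.7 to 14.9 CPM in number 3 and 11.6 to 15.1 CPM in numbers 1 and 2, and endothelial markers to 6.13 to 7.28 CPM in number 3 and 5.47 to 8.43 CPM in numbers 1 and 2.

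One library, control 2, stood apart from the rest. Over the 9214 genes averaging 10 CPM or more, its mean distance from the other 8 libraries was 0.306 (root mean square difference, log2 CPM), the greatest of the 9, and mimic 1 came next at 0.294. On the first principal component, which held 19.6% of the variance, control 2 lay at 40.5 and the others between -23.1 and 15.6. For the comparison with numbers 1 and 2, log2 differences of the genes named and medians of gene lists are therefore given with and without control 2.

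Each number 3 library had received another reagent, and the spread among them was low. Their 3 pairwise distances were 0.165 to 0.238, against 0.211 to 0.378 for the 15 pairs of number 1 and 2 libraries and 0.162 to 0.321 for the 18 pairs of 1 number 3 library with another. Without control 2 the pairs of number 1 and 2 libraries ran from 0.211 to 0.298, which overlaps the range of number 3. The nearest library lay outside number 3 for control 3, which was 0.164 from inhibitor 2, 0.222 from mimic 3 and 0.238 from inhibitor 3. The same held for mimic 3, which was 0.162 from inhibitor 1 and 0.165 from inhibitor 3. Inhibitor 3 had mimic 3 as its nearest. Per gene, over the 9219 genes of at least 10 CPM in all 12 libraries, the SD across the 3 treatments had a median of 0.0512 (log2) within number 3, against 0.101 within number 1, 0.128 within number 2 and 0.0633 within number 4. Each of these SDs holds any effect of the reagents as well as the spread between libraries, and that of number 2 also holds control 2.

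The differences between treatments within a number were also lowest in number 3. The median absolute difference between the mimic and control libraries was 0.0631 (log2) in number 3, against 0.0735 in number 1, 0.212 in number 2 and 0.0904 in number 4. Between mimic and inhibitor, a pair that does not involve control 2, it was 0.054 in number 3, against 0.136 in number 1, 0.0584 in number 2 and 0.0545 in number 4. Number 3 was thus the lowest of the 4 numbers in each pair of treatments, by a small margin over numbers 2 and 4 in the pair of mimic and inhibitor.

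**Figure D1:**
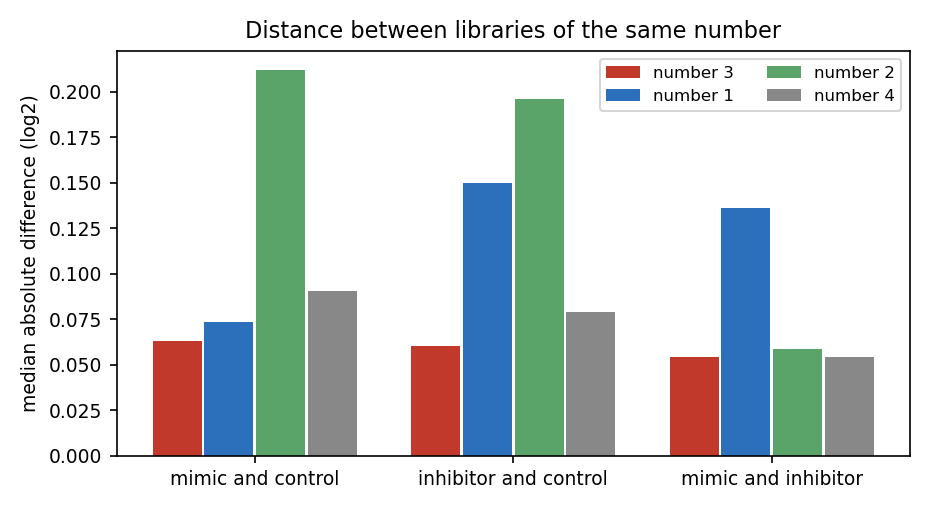
Median absolute difference in log2 CPM over 9219 genes between pairs of treatments within the same replicate number (bars, 1 pair of libraries each, no error bar). Number 3 lies between 0.054 and 0.0631, while number 2 reaches 0.212 in the pairs with control 2.

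Set against numbers 1 and 2, the number 3 libraries differed little at the level of single genes. With treatment as a covariate, 0 of 13279 genes tested had an adjusted p under 0.05 (0% of genes, edgeR quasi-likelihood). An unadjusted p under 0.05 was found for 223, or 1.68%, where evenly spread p-values would give 664. The lack of calls is therefore not read as a lack of difference. DESeq2 called 2 and limma on log2(TPM + 1) called 0. Of the 9214 genes of at least 10 CPM, 9027 (98%) differed by less than 0.25 on the log2 scale, and the median absolute difference was 0.0459. The middle 95% of these genes ran from -0.219 to 0.139. For 8961 of them, or 97.3%, the whole 95% interval of the difference lay within 1.5-fold in either direction, and the median SE was 0.0786.

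DESeq2's 2 genes, named here after their values were seen, were E130218I03Rik, higher in number 3, and Gm49416, lower in number 3. E130218I03Rik had 14.5, 9.12 and 8.19 CPM in control 3, mimic 3 and inhibitor 3, against 9.35, 4.07, 3.3, 1.6, 2.05 and 2.06 CPM in control 1, control 2, mimic 1, mimic 2, inhibitor 1 and inhibitor 2. Its groups overlap, since control 1 lies above mimic 3 and inhibitor 3. Gm49416 had 0, 0.0949 and 0 CPM in control 3, mimic 3 and inhibitor 3, against 5.51, 0.091, 0.43, 5.9, 7.42 and 5.64 CPM in control 1, control 2, mimic 1, mimic 2, inhibitor 1 and inhibitor 2. Among the 6 libraries of numbers 1 and 2, control 2 was as low as number 3.

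The 3 number 3 libraries lay entirely above the other 6 for 123 genes (0.926% of those tested) and entirely below them for 82 genes (0.618%). Among these, genes averaging 5 CPM or more were ranked by p, and the 10 of smallest p in each direction were taken, so that their separation is part of their selection. Their log2 differences are listed without a test.

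The higher genes came from varied pathways. Acot2, a mitochondrial acyl-CoA thioesterase, had 22.5, 23.4 and 23.8 CPM in control 3, mimic 3 and inhibitor 3, against 13.3 to 21.02 CPM (median 17.9) in numbers 1 and 2, a log2 difference of 0.42 ± 0.13 with control 2 and 0.43 without it. Acot2 has a close paralog in Acot1, and how shared reads were divided is not known. Mimic 2 was the lowest of the 9 libraries and inhibitor 3 the highest.

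Acvr1, a type I receptor for BMP and activin ligands, was very even: 38.7, 38.5 and 38.2 CPM in control 3, mimic 3 and inhibitor 3, against 32.9 to 34.8 CPM (median 33.5) in numbers 1 and 2, with a log2 difference of 0.19 ± 0.06, and 0.19 without control 2. Rpl39l, a paralog of the ribosomal protein gene Rpl39, had 38.0, 34.3 and 37.7 CPM in control 3, mimic 3 and inhibitor 3, against 29.7 to 32.7 CPM (median 31.99) in numbers 1 and 2. Its log2 difference was 0.21 ± 0.07, and 0.23 without control 2. The other members of this set were Prorsd1 (0.37), Dzank1 (0.27), Lyplal1 (0.18), Tmem128 (0.17) and Tstd2 (0.15), given as log2 differences. Without control 2 these ran between 0.16 for Tstd2 and 0.38 for Prorsd1.

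Zc3h11a, which encodes a zinc finger protein of mRNA export, had the greatest difference of the set, 0.98 ± 0.26 (log2), and 0.87 without control 2. It had 19.4, 28.1 and 16.7 CPM in control 3, mimic 3 and inhibitor 3, against 6.75 to 15.04 CPM (median 10.5) in numbers 1 and 2. The symbol belongs to 2 gene identifiers that overlap each other and Zbed6 on the same strand, so its counts are uncertain.

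The lower genes included matrix and neuronal genes. Eln, which encodes elastin, had 5.48, 5.77 and 5.72 CPM in control 3, mimic 3 and inhibitor 3, against 6.6 to 8.39 CPM (median 7.53) in numbers 1 and 2. Its log2 difference was -0.40 ± 0.11, and -0.37 without control 2. Lpin1, a phosphatidate phosphatase of triglyceride synthesis, had 35.4, 38.0 and 37.4 CPM in control 3, mimic 3 and inhibitor 3, against 38.4 to 58.2 CPM (median 45.2) in numbers 1 and 2, a log2 difference of -0.31 ± 0.11, and -0.32 without control 2. The number 3 libraries of Lpin1 lie close together, while mimic 1 and mimic 2, of the same treatment, are the lowest and the highest of the other 6.

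Sox9, a transcription factor of neural crest and glial fate, had 19.7, 19.2 and 18.7 CPM in control 3, mimic 3 and inhibitor 3, against 20.03 to 25.5 CPM (median 22.7) in numbers 1 and 2, with a log2 difference of -0.24 ± 0.09, and -0.21 without control 2. Cacna1g, a T-type calcium channel subunit, had 24.3, 24.9 and 23.3 CPM in control 3, mimic 3 and inhibitor 3, against 25.6 to 29.8 CPM (median 27.9) in numbers 1 and 2, with a log2 difference of -0.20 ± 0.08, and -0.17 without control 2. Ccnb2, a mitotic cyclin, had 67.7, 67.9 and 64.8 CPM in control 3, mimic 3 and inhibitor 3, against 68.9 to 77.2 CPM (median 74.1) in numbers 1 and 2, with a log2 difference of -0.14 ± 0.06 with control 2 and -0.14 without it. The remaining 5 were Ssc5d (-0.26), Fndc5 (-0.24), Zswim3 (-0.20), Unc13a (-0.11), a synaptic vesicle priming factor, and Plxna1 (-0.11), a semaphorin receptor, as log2 differences. Without control 2 these ran between -0.26 for Fndc5 and -0.10 for Plxna1.

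**Figure D2:**
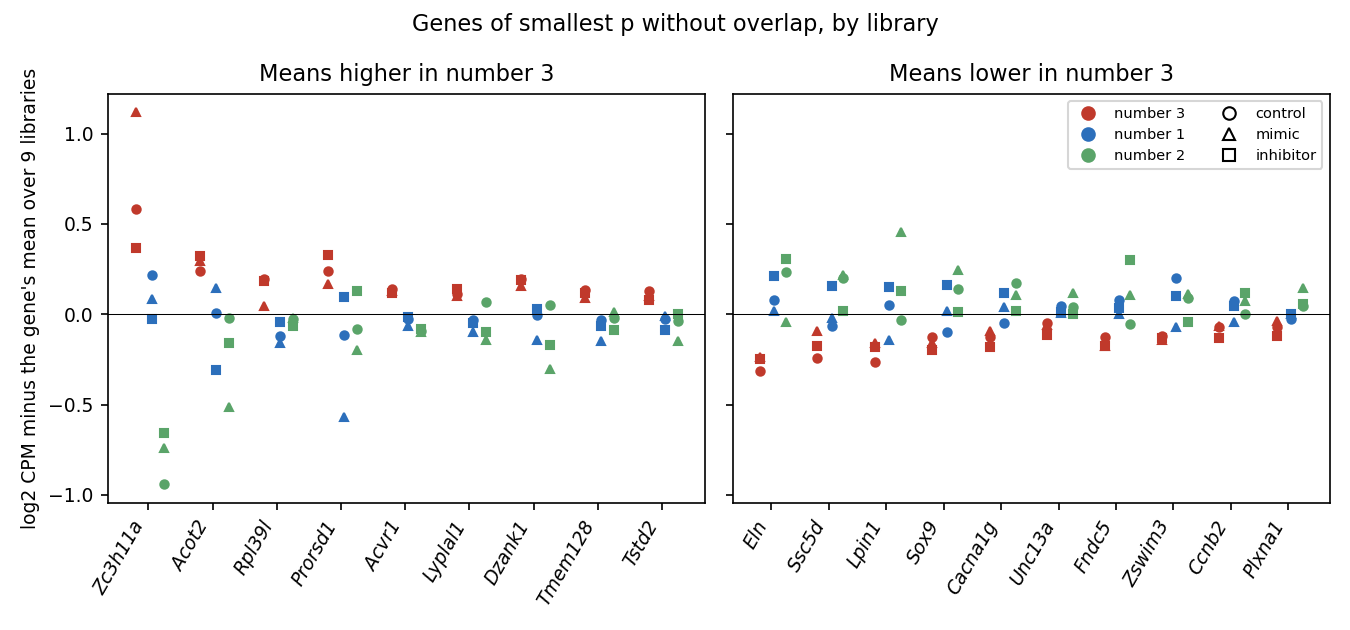
Level of 19 of these genes in each of the 9 libraries, as log2 CPM minus the gene's mean over the libraries, for 9 genes with means higher in number 3 (left panel) and 10 with lower means (right panel). Colour marks the number and shape the treatment, and by selection the 3 points of number 3 lie outside the other 6. Apart from Zc3h11a the differences are small: Tstd2 (0.15) and Acot2 (0.42) have the least and the greatest log2 difference of the other higher genes, and Plxna1 (-0.11) and Eln (-0.40) of the lower ones.

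Only 11 of the 9214 genes of at least 10 CPM differed by 1.5-fold or more, 6 higher and 5 lower. Named after their values were seen, they included Zc3h11a, both identifiers named Septin2, Rps18-ps6, Gm20716 and Dpm1. One Septin2 identifier had 52.1, 28.7 and 68.7 CPM in control 3, mimic 3 and inhibitor 3, against 44.1 to 130 CPM in numbers 1 and 2. The other had 64.4, 82.4 and 54.4 CPM in control 3, mimic 3 and inhibitor 3, against 8.89 to 92.3 CPM in numbers 1 and 2. Mimic 1 and mimic 2 were the highest libraries in the first Septin2 identifier and the lowest in the other, and number 3 overlaps the rest in both.

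The genes of the axis in the series title were similar in number 3 and the rest. Pparg, which encodes the lipid-sensing receptor PPARγ, had 20.4, 19.8 and 18.3 CPM in control 3, mimic 3 and inhibitor 3, against 19.4, 18.8, 19.1, 15.7, 14.5 and 16.3 CPM in control 1, control 2, mimic 1, mimic 2, inhibitor 1 and inhibitor 2, a log2 difference of 0.18 ± 0.09 with control 2 and 0.18 without it. Esrra, which encodes the receptor ERRα, had 109, 100.1 and 100.4 CPM in control 3, mimic 3 and inhibitor 3, against 90.3 to 122 CPM in numbers 1 and 2, with a log2 difference of 0.08 ± 0.08, and 0.15 without control 2. Dnm1l, which encodes the mitochondrial fission GTPase Drp1, had 68.5, 62.9 and 66.3 CPM in control 3, mimic 3 and inhibitor 3, against 47.4 to 87.9 CPM in numbers 1 and 2. Its log2 difference was -0.10 ± 0.16, and -0.21 without control 2, which had the lowest level. Ppargc1a, which encodes PGC-1α, had 0 counts in control 3, mimic 3 and inhibitor 3, which allows up to 0.0403, 0.0406 and 0.0453 CPM at 3 counts each, a limit that covers counting error only. Of the numbers 1 and 2, only control 2 held reads of it, 5 in all, and no difference could be detected at this depth.

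Gene groups were compared by the median log2 difference of their members, over 47 lists. The median over all 13279 genes was -0.00696, and 0.00694 without control 2, with 6210 higher and 7069 lower means, and every list had 0 called members. The lists of 6 or more tested genes farthest from 0 were imprinted genes (-0.135 with and without control 2) and cholesterol and fatty acid synthesis (-0.111). Fibroblast markers (0.299), epithelial markers (-0.291), immune markers (-0.189) and nuclear long noncoding RNAs (-0.303) were farther, on 5, 2, 2 and 1 tested genes. Without control 2 these 4 medians were 0.237, -0.244, 0.396 and -0.44, so that of the immune markers changed sign.

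Genes of cholesterol and fatty acid synthesis, which make the lipids of new membrane, had lower means in number 3 for 32 of 33 members, with a median of -0.111, and -0.106 without control 2. Scd2, a fatty acid desaturase, averaged 1885 ± 34.8 CPM in number 3 (SD, n = 3) and 2029 ± 153 CPM in numbers 1 and 2 (SD, n = 6), while Acly, which makes cytosolic acetyl-CoA, averaged 1976 ± 69.9 CPM in number 3 and 1980 ± 36.3 CPM in numbers 1 and 2. The summary of the list overlapped between the numbers: its mean log2 CPM, scaled over the 12 libraries, was 6.90, 6.95 and 6.88 in control 3, mimic 3 and inhibitor 3, against 6.93, 6.98, 6.87, 7.18, 7.14 and 7.07 in control 1, control 2, mimic 1, mimic 2, inhibitor 1 and inhibitor 2.

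Heat shock chaperones, which fold nascent and damaged proteins, had lower means in 16 of 21 members, with a median of -0.101, and -0.0742 without control 2. Hsp90ab1, the constitutive cytosolic Hsp90, averaged 6416 ± 136 CPM in number 3 and 6887 ± 490 CPM in numbers 1 and 2. Hspa9, the mitochondrial Hsp70, averaged 1064 ± 34.9 CPM in number 3 and 1006 ± 85.9 CPM in numbers 1 and 2. The list thus held members on both sides.

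Mitosis and G2/M genes had lower means in 33 of 40 members, with a median of -0.0681, and -0.0766 without control 2. Top2a, which untangles chromosomes, averaged 706 ± 19.2 CPM in number 3 and 741 ± 74.4 CPM in numbers 1 and 2, and Cdk1, the mitotic kinase, averaged 287 ± 7.02 CPM in number 3 and 295 ± 18.2 CPM in numbers 1 and 2. The list's mean log2 CPM, on the same scale, was 6.38, 6.41 and 6.40 in control 3, mimic 3 and inhibitor 3, against 6.52, 6.27, 6.48, 6.58, 6.499 and 6.56 in control 1, control 2, mimic 1, mimic 2, inhibitor 1 and inhibitor 2. All 5 number 1 and 2 libraries other than control 2 lay above the 3 of number 3, and control 2 lay below them. G1/S and DNA replication genes had 22 higher and 20 lower means and a median of 0.00294, and 0.028 without control 2.

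On the other side stood genes of amino acid stress. The integrated stress response, in which phosphorylated eIF2α favours translation of ATF4, had higher means in 26 of 33 members, with a median of 0.087, and 0.127 without control 2. Asns, the asparagine synthetase, averaged 1764 ± 16.1 CPM in number 3 and 1683 ± 138 CPM in numbers 1 and 2. Slc7a5, a transporter of large neutral amino acids, averaged 2474 ± 8.21 CPM in number 3 and 2359 ± 220 CPM in numbers 1 and 2. In both genes the SD of number 3 was below that of the other 6, while in Acly and Rpl4 it was above. The SD of the other 6 also holds the difference between numbers 1 and 2, so it is no spread within a number.

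Cth and Mthfd2, 2 of the 33 stress response genes, lay higher in number 3 with no overlap, as did 0.926% of all genes tested. Cth, which makes cysteine from cystathionine, had 130, 126 and 130 CPM in control 3, mimic 3 and inhibitor 3, against 119, 117, 125, 74.3, 92.7 and 89.6 CPM in control 1, control 2, mimic 1, mimic 2, inhibitor 1 and inhibitor 2. Mthfd2, an enzyme of mitochondrial folate metabolism, had 707, 752 and 746 CPM in control 3, mimic 3 and inhibitor 3, against 633 to 699 CPM in numbers 1 and 2. Both were picked after their values were seen, and control 3 cleared the next library by little in Mthfd2.

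Translation and respiration genes were slightly higher on average. Cytosolic ribosomal proteins had higher means in 76 of 80 members with a median of 0.0446, and nuclear OXPHOS subunits in 58 of 77 with a median of 0.0196. Mitochondrial ribosomal proteins had higher means in 60 of 78 members with a median of 0.0319, and aminoacyl-tRNA synthetases in 16 of 20 with a median of 0.0585. All 4 medians were greater without control 2: 0.0822 for cytosolic ribosomal proteins, 0.0648 for OXPHOS subunits, 0.0648 for mitochondrial ribosomal proteins and 0.0844 for aminoacyl-tRNA synthetases. The mean log2 CPM of each list, scaled over the 12 libraries, overlapped between the numbers. That of cytosolic ribosomal proteins was 7.46 to 7.50 in number 3 and 7.29 to 7.54 in numbers 1 and 2. Control 2 lay above all of number 3 in each of the 4 lists. Inhibitor 1 did so in all but the synthetases. Rpl4 averaged 2714 ± 65.0 CPM in number 3 and 2639 ± 42.5 CPM in numbers 1 and 2, and Atp5b, the catalytic subunit of ATP synthase, 4595 ± 41.2 CPM in number 3 and 4528 ± 358 CPM in numbers 1 and 2. Of these lists, 3 hold short genes, with a median exon length of 1750 bases for cytosolic ribosomal proteins and 1760 bases for OXPHOS subunits. It was 2390 bases for mitochondrial ribosomal proteins, against 4330 for all genes tested. Aminoacyl-tRNA synthetases, with the greatest median difference of the 4 lists, were not short, at 4840 bases.

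Genes of low oxygen and of glycolysis showed little shift. Hypoxia-induced genes had a median of -0.00761 over 31 members, and -0.00893 without control 2. Glycolysis genes had a median of -0.0357 over 24 members, which changed sign without control 2 (0.00939), and Ldha, the lactate dehydrogenase subunit, averaged 2553 ± 84.2 CPM in number 3 and 2594 ± 277 CPM in numbers 1 and 2. Genes reported as miR-155 targets had 16 higher and 20 lower means with a median of -0.0147, and -0.0194 without control 2. The microRNA pathway had a median of -0.0152, and -0.043 without control 2, with Ago2 at 335 ± 4.55 CPM in number 3 and 337 ± 38.4 CPM in numbers 1 and 2. The proteasome (0.000678), the TCA cycle (0.0044), the circadian clock (0.00769) and mitochondrial fission and fusion genes (0.0055) had medians close to 0, and without control 2 they were 0.0188, 0.0287, 0.0232 and 0.00491 in the same order. Neuronal cytoskeleton genes had lower means in 20 of 25 members with a median of -0.0546 (-0.0588 without control 2), and Tuba1a averaged 2044 ± 68.5 CPM in number 3 and 2217 ± 263 CPM in numbers 1 and 2.

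Whether the number 3 libraries deviated alike in the 3 treatments was looked at gene by gene. The difference of number 3 from the mean of numbers 1 and 2 had the same sign in all 3 treatments for 2882 of 9214 genes, or 31.3%, with 1360 higher and 1522 lower. Unrelated signs also agree in a share of genes, so no excess is read from the 31.3%. Across the 9214 genes, which share libraries and are not independent replicates, the differences in mimic and inhibitor were correlated. Pearson's r was 0.223 and Spearman's rho 0.302. For control and mimic the values were -0.103 and 0.0175, and for control and inhibitor -0.326 and 0.0805. With control the 2 measures thus differed in sign.

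With control 1 alone as the comparison for control 3, so that control 2 was not used, the difference in control and that in mimic had a Pearson r of 0.218 and a Spearman rho of 0.571. For control and inhibitor the values were -0.181 and 0.0898, again of opposite sign, and 40.1% of genes had a single sign. Number 2 minus number 1 had a single sign in 9.72% of genes, and its values in control and inhibitor were correlated with a Spearman rho of -0.731. That difference uses control 2, so its share is not on like terms with the 40.1%, and no excess is read from the 2. The SD of number 3 minus the mean of the others was 0.193 in control, 0.24 in mimic and 0.194 in inhibitor (log2), while number 2 minus number 1 had an SD of 0.367 in control, 0.238 in mimic and 0.217 in inhibitor.

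Leaving out control 2 changed the count of genes called. Without it, 229 genes had a lower level in number 3 at an adjusted p under 0.05 (1.72% of 13279), 1 was higher (0.00753%), and 1596 had an unadjusted p under 0.05. No other single library had such an effect: without control 3 the count was 2 (Gm4724 and Gm2174), without control 1 it was 1 (E130218I03Rik), and without any of the other 6 libraries it was 0. Each of the 9 libraries was left out in turn, while the fits that combine the loss of control 2 with another setting were added after its values had been seen.

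**Figure D3:**
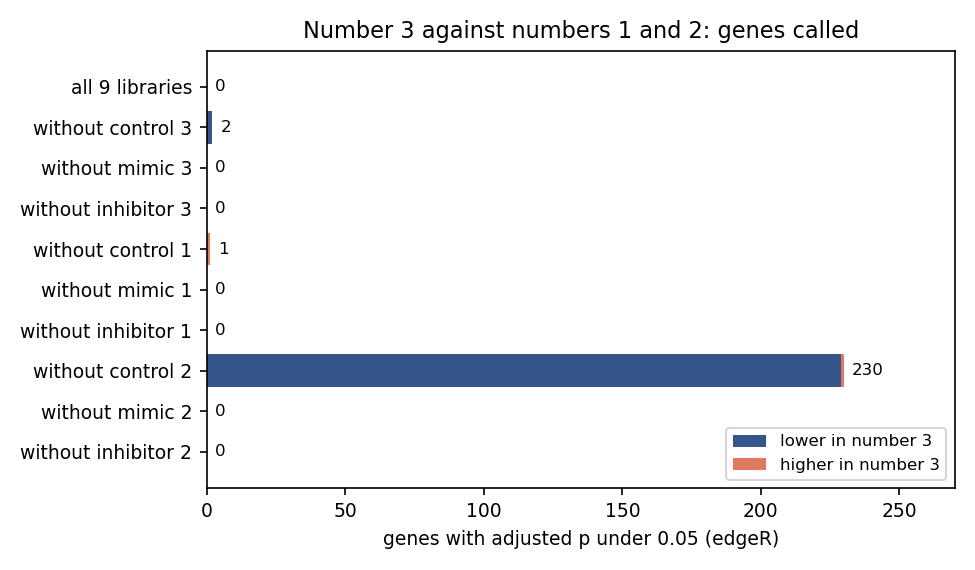
Number of genes with an adjusted p under 0.05 (edgeR) for number 3 against numbers 1 and 2 with all 9 libraries and with each library left out in turn, as bars split by direction. The bar without control 2 reaches 230 genes, 229 of them lower in number 3, and the other bars lie between 0 and 2.

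The 229 genes were long and AT-rich. Their median exon length was 8850 bases, against 4330 over all genes tested, and their median exon GC content was 40.8%, against 50.3%. A GC content under 45% was found in 206 of them, or 90%, against 23.9% of the 13263 tested genes with a value. Their median log2 difference was -0.379 without control 2 and -0.262 with it.

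In control 2 itself these genes were lower still. Relative to each gene's mean over the 9 libraries, the median level of the 229 genes was -0.0799, -0.23 and -0.165 (log2) in control 3, mimic 3 and inhibitor 3, against 0.338, 0.213 and 0.014 in control 1, mimic 1 and inhibitor 1 and -0.526, 0.278 and 0.173 in control 2, mimic 2 and inhibitor 2. Control 2 was the lowest of the 9 libraries in 218 of the 229 genes. The 229 genes were called only with control 2 left out, a choice that favours genes in which control 2 is low. The level of control 2 in them is therefore partly set by the selection, and nothing is read from it. Inhibitor 1 had the lowest median of the other 5 libraries of numbers 1 and 2.

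The 1 higher gene was Gm20517, which averaged 1.62 CPM in number 3 and 0.482 CPM in numbers 1 and 2 and overlaps Med20 and Usp49 on the same strand. Among called genes averaging 5 CPM or more, the 10 of greatest difference were all lower in number 3. Myt1l, a transcription factor that represses other lineages in neurons, had 4.2, 4.48 and 3.65 CPM in control 3, mimic 3 and inhibitor 3, against 7.11, 4.07, 6.75, 6.63, 5.68 and 7.12 CPM in control 1, control 2, mimic 1, mimic 2, inhibitor 1 and inhibitor 2. Its log2 difference was -0.70 ± 0.18 without control 2 and -0.60 ± 0.18 with it. Control 2 sat among the number 3 values, and the other 5 libraries lay above them.

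Cenpe, the kinetochore motor protein, had 18.7, 17.4 and 18.5 CPM in control 3, mimic 3 and inhibitor 3, against 26.3, 16.1, 29.4, 29.4, 25.2 and 25.9 CPM in control 1, control 2, mimic 1, mimic 2, inhibitor 1 and inhibitor 2, a log2 difference of -0.57 ± 0.08 without control 2 and -0.46 ± 0.15 with it. Phip, a large bromodomain protein, had 21.2, 19.9 and 20.9 CPM in control 3, mimic 3 and inhibitor 3, against 36.4, 17.3, 28.5, 36.6, 26.4 and 28.9 CPM in control 1, control 2, mimic 1, mimic 2, inhibitor 1 and inhibitor 2. Its difference was -0.61 without control 2 and -0.48 with it. Arid4b (-0.63), Rbm41 (-0.60), Zfp729a (-0.59), Arhgap5 (-0.58), Myo9a (-0.57), Ccdc189 (-0.57) and Zfp955a (-0.56, log2) completed the set without control 2, and with it they ran between -0.51 for Ccdc189 and -0.40 for Myo9a. Ccdc189 and Zfp955a, with exon lengths of 3426 and 3544 bases, were the short ones, and Zfp729a overlaps Gm49345 on the same strand.

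By list, mitosis and G2/M genes held 6 of the called genes among 40 (Kif11, Cenpf, Smc2, Mki67, Smc4 and Cenpe), all lower in number 3. Mki67, the proliferation antigen, had 108, 115 and 120 CPM in control 3, mimic 3 and inhibitor 3, against 153, 91.6, 162, 175, 135 and 146 CPM in control 1, control 2, mimic 1, mimic 2, inhibitor 1 and inhibitor 2. Smc2 and Smc4, the core subunits of condensin, had log2 differences of -0.51 and -0.36 without control 2 and -0.38 and -0.22 with it. Chromatin KMT and KDM genes held 3 (Kdm5a, Setd2 and Kdm3a) among 33. Another 12 lists held 1 each, all lower in number 3 (Apc, Pola1, Creb1, Kif5c, Yme1l1, Clock and Tnrc6a among them), beside the 1.72% called lower among all genes tested, so nothing is read about those lists. The members called have exon lengths of 3988 bases (Sucla2) to 16116 bases (Apc) and a GC content of at most 47.5% (Kif5c), so list membership and gene composition move together here, and their part in the result was not tested apart.

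A fit with offsets for GC content and exon length in each library moved most of these calls. Without control 2 and with the offsets, 18 genes were called, 9 higher and 9 lower, and 9 of the 229 remained. An unadjusted p under 0.05 (edgeR) was found for 1467 genes, against 1596 without control 2 and without offsets. The 229 genes had a median log2 difference of -0.228 under the offsets, and 225 of them were still lower. With limma on log2(TPM + 1) and without control 2, 0 genes were called (1400 with an unadjusted p under 0.05), while DESeq2 called 468, with all 229 among them. When a further library was left out beside control 2, the count was 1 without mimic 3, 11 without control 3, 378 without inhibitor 3, 279 without mimic 1, 696 without inhibitor 1, 94 without mimic 2 and 57 without inhibitor 2.

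Across all genes the number 3 difference followed GC content and length to a modest degree. Over 9205 genes of at least 10 CPM, Spearman's rho with GC content was 0.217 with all 9 libraries and 0.451 without control 2, and with exon length -0.266 and -0.392, as descriptions across genes. In the quintile of genes lowest in GC content (31 to 44.2%), control 3 minus control 1 had a median of -0.202 (log2) and control 3 minus control 2 one of 0.211. The 2 comparisons of control 3 thus went in opposite directions, and the fitted difference in this quintile had a median of -0.0555 with all 9 libraries and -0.103 without control 2.

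In the same quintile, mimic 3 was lower than mimic 1 (-0.0959) and mimic 2 (-0.13), and inhibitor 3 was level with inhibitor 1 (0.0125) and lower than inhibitor 2 (-0.0892), as medians of the log2 difference. In the quintile of longest genes, mimic 3 was lower than mimic 1 (-0.102) and mimic 2 (-0.0772), while inhibitor 3 was higher than inhibitor 1 (0.0352) and lower than inhibitor 2 (-0.0531). Control 3 there was lower than control 1 (-0.147) and higher than control 2 (0.12). The 3 number 3 libraries had the flattest profiles over GC content: in the lowest quintile they lay at -0.035, -0.0335 and -0.0211 in control 3, mimic 3 and inhibitor 3 relative to each gene's mean, against 0.167, 0.0665 and -0.0399 in control 1, mimic 1 and inhibitor 1 and -0.247, 0.102 and 0.0711 in control 2, mimic 2 and inhibitor 2.

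**Figure D4:**
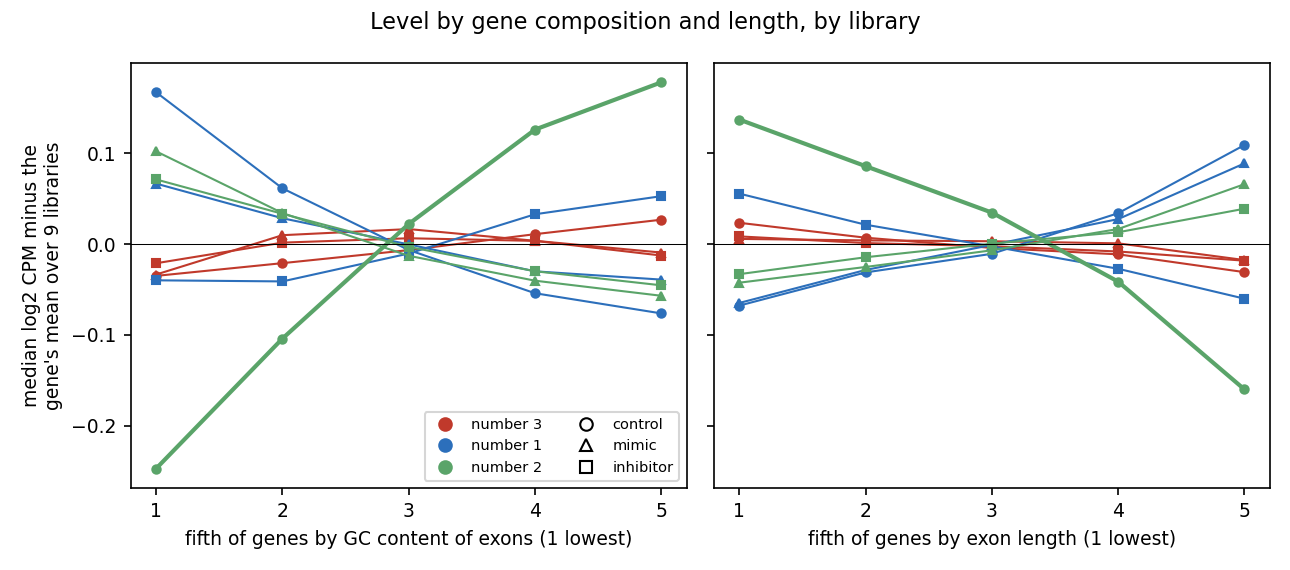
Median level of genes in quintiles by exon GC content (left) and by exon length (right), as log2 CPM minus the gene's mean over the 9 libraries, with a line per library, colour for the number and shape for the treatment. Control 2 (thick line) goes from -0.247 in the quintile lowest in GC content to 0.178 in the highest, and the 3 number 3 libraries stay within 0.035 of 0.

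The difference of number 3 varied with treatment for 3 of 13279 genes (0.0226%, edgeR test of the interaction, 113 at an unadjusted p under 0.05), all predicted genes or pseudogenes named after their values were seen. The count was 267 without control 1, 32 without control 2, 7 without inhibitor 1, 5 without inhibitor 2 and 12 with DESeq2. Rps18-ps6, a pseudogene of the ribosomal protein gene Rps18, had 909, 856 and 877 CPM in control 3, mimic 3 and inhibitor 3, against 798, 956, 0, 0, 867 and 827 CPM in control 1, control 2, mimic 1, mimic 2, inhibitor 1 and inhibitor 2. The 0 counts of mimic 1 and mimic 2 allow up to 0.0462 and 0.043 CPM, at 3 counts each. Reads of Rps18-ps6 and Rps18 cannot be told apart with certainty. Gm20716, which overlaps Adnp and Dpm1 on the same strand, had 21.3, 48.2 and 0 CPM in control 3, mimic 3 and inhibitor 3, against 33.7 to 45.7 CPM in numbers 1 and 2, and Dpm1 had 20.3, 7.92 and 35.3 CPM in control 3, mimic 3 and inhibitor 3, against 8.26 to 17.1 CPM in numbers 1 and 2. The library at 0 in Gm20716 was thus the highest in Dpm1, which makes the mannose donor of glycosylation. Gm4724 had 3.97, 0.596 and 0.739 CPM in control 3, mimic 3 and inhibitor 3, against 0.705 and 0.471 CPM in control 1 and control 2 and 3.91 to 4.23 CPM in the other 4.

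As a measure of how far numbers differ that were not set apart, number 2 was compared with number 1. Of 13279 genes, 0 were called by edgeR (0% of genes, 184 at an unadjusted p under 0.05), and DESeq2 called 14. Leaving out control 1, control 2 or inhibitor 2 gave 1 gene each, Gm45062, Glod4 and Cfap74. Glod4, a glyoxalase domain protein, took either of 2 levels whatever the number: 110 and 101 CPM in control 3 and control 1, 105 CPM in mimic 2 and 109 CPM in inhibitor 2, against 50.4 to 53.8 CPM in the other 5 libraries, mimic 3 and inhibitor 3 among them. Number 3 against numbers 1 and 2 and number 2 against number 1 use overlapping libraries, so the 2 counts are not independent.

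Number 3 was also compared with number 4, which the choice of libraries left out. A difference of number 4 from the others was known from earlier results on these counts. The counts of genes and p-values of this comparison are therefore also a description and support no claim. In a fit of all 12 libraries, number 3 was higher in 2429 of 13375 genes (18.2%) and lower in 2261 (16.9%) at an adjusted p under 0.05, with a median log2 difference of -0.00115. Without mimic 3 the 4690 called genes became 3022, and without any of the other 5 libraries of numbers 3 and 4 they became 3180 to 3830. DESeq2 called 5235, and a fit of numbers 3 and 4 only called 6955. Levels in this comparison are CPM scaled over the 12 libraries, as mean ± SD with n = 3 libraries per number. Genes counted below as rising or falling are those called higher or lower in number 3 than in number 4. No change of number 3 itself is meant. Such counts stand beside the 18.2% and 16.9% of all genes tested. The labels give no property that sets the number 4 libraries apart.

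Genes of low oxygen were lower in number 3. Of 32 hypoxia-induced genes tested, 22 fell and 3 rose, with a median log2 difference of -0.80. Adm, which encodes the vasodilator adrenomedullin, had the greatest fall of the genes given here, with 1.31 ± 0.316 CPM in number 3 and 42.7 ± 1.02 CPM in number 4 (log2 difference -5.05 ± 0.24 SE, adjusted p = 4.6e-07). Ankrd37 had 6.13 ± 0.888 CPM in number 3 and 55.1 ± 1.65 CPM in number 4, and Egln3, a prolyl hydroxylase that marks HIF for destruction, 2.74 ± 0.214 CPM in number 3 and 15.4 ± 0.858 CPM in number 4. In each of them the numbers 1 and 2 were close to number 3, with 1.8 ± 0.504 CPM for Adm, 7.38 ± 0.833 for Ankrd37 and 3.0 ± 0.351 for Egln3 (SD, n = 6).

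Glycolysis followed the same course, with 20 of 24 genes lower, 1 higher and a median of -0.603. The list's mean log2 CPM was 7.62 to 7.67 in number 3 and 8.38 to 8.51 in number 4. Numbers 1 and 2, at 7.59 to 7.80, held the range of number 3. Slc2a1, the glucose transporter GLUT1, had 55.0 ± 3.46 CPM in number 3 and 303 ± 15.7 CPM in number 4 (log2 difference -2.46 ± 0.09, adjusted p = 7.63e-08). Pdk1, a kinase that inhibits pyruvate dehydrogenase, had 2.74 ± 0.461 CPM in number 3 and 15.3 ± 0.637 CPM in number 4. Bnip3, a mitophagy receptor from the autophagy list, had 38.2 ± 3.2 CPM in number 3 and 194 ± 7.39 CPM in number 4.

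Of 33 genes of cholesterol and fatty acid synthesis, 30 fell and 0 rose, with a median of -0.934. Hmgcs1, which commits acetyl-CoA to the mevalonate pathway, had 53.3 ± 3.25 CPM in number 3 and 245 ± 7.39 CPM in number 4 (log2 difference -2.21 ± 0.17, adjusted p = 1.01e-05). Insig1, which holds back the transcription factors that switch on this pathway, had 46.5 ± 1.17 CPM in number 3 and 151 ± 6.01 CPM in number 4. The list's mean log2 CPM was 6.88 to 6.95 in number 3 and 7.82 to 7.85 in number 4, with no overlap. Numbers 1 and 2, at 6.87 to 7.18, held the range of number 3.

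The integrated stress response went the other way, with 17 of 33 genes higher, 1 lower and a median of 0.397. The list's mean log2 CPM was 7.90 to 7.94 in number 3, 7.44 to 7.55 in number 4 and 7.64 to 8.03 in numbers 1 and 2. Ppp1r15a, the phosphatase subunit GADD34 that ends the response, had 435 ± 8.64 CPM in number 3 and 130 ± 4.72 CPM in number 4 (log2 difference 1.74 ± 0.15, adjusted p = 1.93e-05). Atf3 had 74.9 ± 5.06 CPM in number 3 and 31.1 ± 1.99 CPM in number 4, and Trib3, a pseudokinase induced by ATF4, 604 ± 18.8 CPM in number 3 and 288 ± 20.1 CPM in number 4. Of 25 genes of the unfolded protein response, 5 rose, near the 18.2% of all genes tested, and 13 fell, against 16.9% of all genes. Among those that fell was Hspa5, the main chaperone of the endoplasmic reticulum, with 445 ± 13.1 CPM in number 3 and 822 ± 14.5 CPM in number 4.

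Proliferation genes moved in both directions. Of 40 mitosis and G2/M genes 24 fell and 2 rose, with Mki67 at 113 ± 6.12 CPM in number 3 and 278 ± 8.1 CPM in number 4 (log2 difference -1.30 ± 0.16, adjusted p = 0.000168). The mean log2 CPM of the mitosis list was 6.38 to 6.41 in number 3, 6.72 to 6.80 in number 4 and 6.27 to 6.58 in numbers 1 and 2. Of 42 G1/S and DNA replication genes 19 rose and 2 fell, with Tyms, the thymidylate synthase, at 90.1 ± 2.11 CPM in number 3 and 63.9 ± 1.26 CPM in number 4. Heat shock chaperones fell in 13 of 21 cases and rose in 1, and Hspa8, the constitutive Hsp70, had 561 ± 11.3 CPM in number 3 and 1500 ± 45.1 CPM in number 4. The mean log2 CPM of the heat shock list was 7.03 to 7.16 in number 3, 7.55 to 7.58 in number 4 and 7.09 to 7.33 in numbers 1 and 2. Of 27 genes of extracellular matrix and adhesion 23 fell and 1 rose. Their mean log2 CPM was 4.48 to 4.70 in number 3 and 5.14 to 5.23 in number 4, while numbers 1 and 2, at 4.48 to 4.68, were level with number 3. Of 78 mitochondrial ribosomal protein genes 27 rose and 1 fell, with a mean log2 CPM of 5.87 to 5.88 in number 3, 5.68 to 5.73 in number 4 and 5.77 to 5.94 in numbers 1 and 2, a range that holds number 3.

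Of 14 neuroblastoma markers tested, 5 rose and 2 fell, with a median of 0.0529, beside 18.2% higher and 16.9% lower among all genes tested. The share that fell is not above that of all genes, so nothing is read about the list from it. The list's mean log2 CPM was 6.78 to 6.80 in number 3, 6.69 to 6.75 in number 4 and 6.82 to 6.92 in numbers 1 and 2. Among them Gata3, a transcription factor of sympathetic neurons, had 45.2 ± 1.23 CPM in number 3 and 27.1 ± 1.9 CPM in number 4 (log2 difference 0.74 ± 0.08, adjusted p = 0.00011). Tubb3, the neuronal beta-tubulin, fell, with 425 ± 16.4 CPM in number 3 and 620.4 ± 29.4 CPM in number 4 (log2 difference -0.55 ± 0.10, adjusted p = 0.00181), as did Gap43, a growth cone protein, with 151 ± 5.4 CPM in number 3 and 200.4 ± 2.58 CPM in number 4. Of the axis genes, Esrra rose, with 103 ± 5.16 CPM in number 3 and 73.6 ± 3.5 CPM in number 4 (log2 difference 0.48 ± 0.10, adjusted p = 0.0037), and Pparg fell, with 19.4 ± 1.06 CPM in number 3 and 24.2 ± 0.746 CPM in number 4 (log2 difference -0.32 ± 0.10, adjusted p = 0.0264). Outside the lists, Acpp, an acid phosphatase, rose to 37.5 ± 0.589 CPM in number 3, against 12.9 ± 1.75 CPM in number 4, and Kbtbd11 fell to 1.99 ± 0.115 CPM in number 3, against 14.4 ± 1.43 CPM in number 4.

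**Figure D5:**
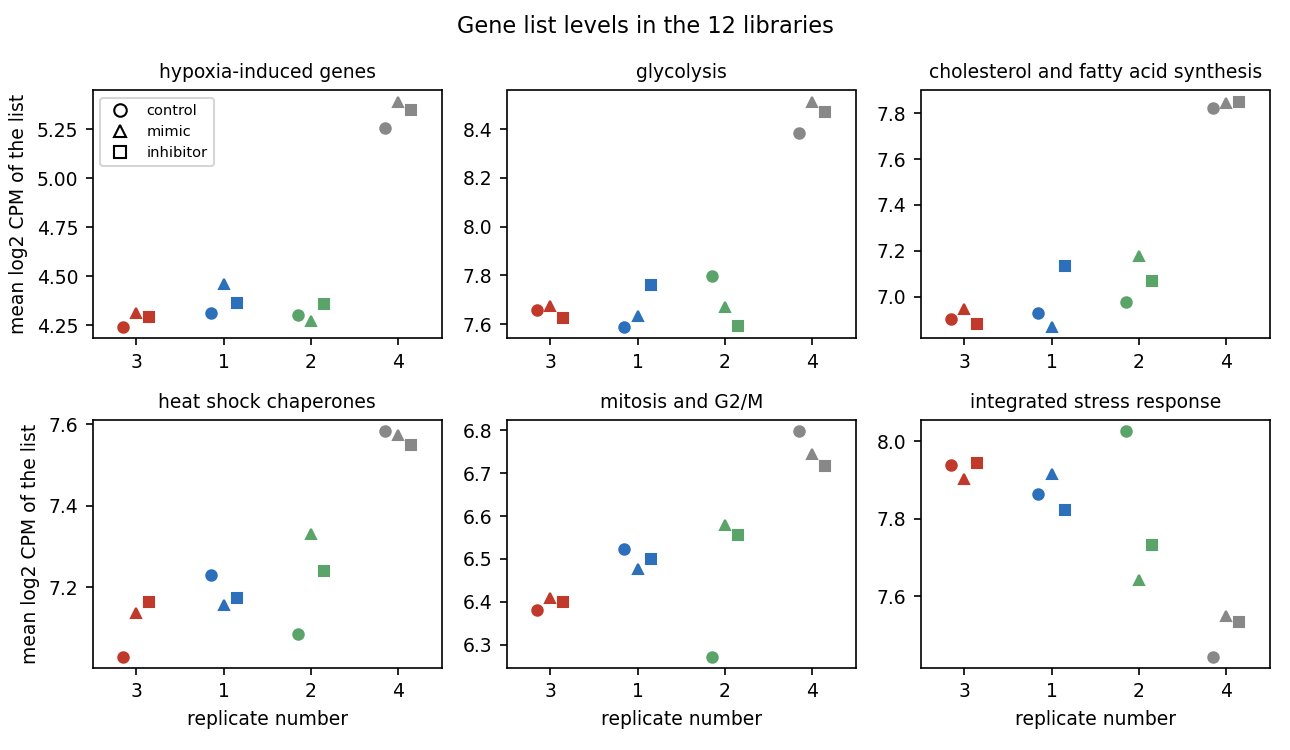
Mean log2 CPM of 6 gene lists in each of the 12 libraries, by replicate number (columns of points, number 3 first) and treatment (shape). Hypoxia, glycolysis, cholesterol synthesis, heat shock and mitosis genes are lower in number 3 than in number 4, and stress response genes are higher. Number 3 lies near numbers 1 and 2. Control 2 is the lowest library in mitosis genes (6.27). In stress response genes numbers 1 and 2 spread from 7.64 (mimic 2) to 8.03 (control 2).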

How the data were processed

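Total RNA of Neuro-2a cells was sequenced in 12 libraries, placed in groups by the treatment and replicate number in the labels. The authors deposited whole-number read counts and TPM values of 15767 genes. The submitters' processing notes name the build GRCm39 and the tools STAR, fastp, StringTie, featureCounts and edgeR, without roles. Their versions, the annotation and the strandedness were not given in the sources used here. Without known strandedness, counts of overlapping, antisense and near-identical genes are uncertain.

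The counts were analysed with edgeR 4.0.16 in R 4.3.3 (TMM scaling, filterByExpr, robust quasi-likelihood, Benjamini-Hochberg adjustment, two-sided, threshold 0.05). Number 3 was set against numbers 1 and 2 over 9 libraries with treatment as a covariate (13279 genes tested), and against number 4 over 12 libraries (13375 genes). CPM use the scaled library sizes. Alternatives used DESeq2 1.42.0 and limma 3.58.1 on log2(TPM + 1). The steps were tested on simulated data. The 9 pairs of libraries within a treatment differed by more than counting noise (chi-square per degree of freedom 20.7 to 104).

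GC content and exon length came from GENCODE M21 on GRCm38, matched by identifier for 15738 genes, and served only as gene properties. The tables give symbols for 15499 genes, a reference table added 260, and 8 stayed without.

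The libraries and gene lists were chosen with earlier results of these data known. Named genes were those of smallest p without overlap and with a mean of at least 5 CPM, excluding predicted genes, 10 per direction, then the axis genes and up to 4 called members, or the 2 of highest level, of each list described. A few genes that meet this rule are left out of the text and figures. Genes named outside this rule are said to be chosen after their values were seen, and the members of lists whose numbers do not overlap or that are called without control 2 were chosen in the same way.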

Additional observations from a re-analysis of the deposited data

Results flagged for a closer look

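In 73 sets of the 6 number 1 and 2 libraries (named genes and list means), 6 had 1 library far from the other 5 by Dixon's test, a rule that chance meets in about 1 of 20 sets, and in each of the 6 that library was control 2. The rate does not hold for Cenpe and Myo9a, which were named because they were called without control 2, a choice that favours genes whose other 5 libraries lie close together. Esrra was at 122 CPM in control 2, against 90.3 to 100 CPM in the other 5. Cenpe was at 16.1 CPM, against 25.2 to 29.4 CPM, and Myo9a at 9.18 CPM, against 17.6 to 20.6 CPM. Scaled over the 9 libraries, the mean log2 CPM of mitosis and G2/M genes was 6.28 in control 2, against 6.49 to 6.59, that of RNA splicing factors 7.27, against 7.44 to 7.51, and that of autophagy and lysosome genes 6.23, against 6.11 to 6.15.

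The number 3 difference varied with treatment, by edgeR's interaction test, for Rps18-ps6 (adjusted p = 6.21e-06), Gm20716 (adjusted p = 2.94e-05) and Gm4724 (adjusted p = 0.0107).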

How the results depend on the processing

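No paired analysis was possible because the comparison is between the replicate numbers themselves, with treatment taking the place of the block. For number 3 against numbers 1 and 2 the count of called genes, 0, was 2 with DESeq2 and 1 with number 1 alone as the reference (Gm20390), and 0 with RLE size factors, upper-quartile scaling, limma on TPM with either pseudocount, no covariate, number 2 alone, 12 libraries, offsets for GC content and length, no filter, a mean of at least 5 CPM and a 1.5-fold minimum. Leaving out single libraries gave 0 to 230. Chosen after seeing the data, leaving out control 2 gave 18 with offsets, 468 with DESeq2, 238 with RLE factors and 0 with limma, and with a further library left out 11 (control 3), 279 (mimic 1), 94 (mimic 2), 1 (mimic 3), 696 (inhibitor 1), 57 (inhibitor 2) and 378 (inhibitor 3). Number 2 against number 1 went from 0 to 14 with DESeq2, 2 with numbers 1 and 2 only, 2 with no filter and 0 to 1 over single libraries. The interaction count, 3, was 12 with DESeq2 and 3 to 267 over single libraries, with 267 without control 1 and 32 without control 2. Number 3 against number 4, 4690 genes, gave 3022 to 3830 over the single libraries of numbers 3 and 4, with 3022 without mimic 3, and 4474 to 6955 under other settings, with 5235 with DESeq2 and 6955 with numbers 3 and 4 only. The cause of these changes was not tested. Of 1659 values of the 166 genes named against number 4 under alternatives, 1514 kept their direction and call, 145 kept the direction only and 0 turned. Totals of 60695388 to 74200532 counts leave genes near 0.04 CPM undetected.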
